A study of Mus musculus with 12 samples.

Results

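Interferon-stimulated genes were examined in the terminal ileum of colonized and germ-free mice with and without early-life exposure to a macrolide antibiotic. The set comprised 10 of the 556 genes with values on the panel, taken by name: the transcription factors Irf1 and Irf7, the nucleic acid sensors Ifih1, Ddx58 and Ifi204, the antiviral effectors Mx1, Ifit2, Bst2 and Ifi35, and Ifng, the type II interferon, for reference. All 10 had a value in every mouse, and none was at a count of 0. The NanoString nCounter mouse immunology panel, which counts colour-coded probe pairs hybridized to total RNA, was run on 12 male C57BL/6 mice at week 7, 3 per group. SPF control mice were specific pathogen free and received no antibiotic. SPF PAT mice were specific pathogen free and had nursed from dams given tylosin, a macrolide, as a single pulsed antibiotic treatment (PAT) in the drinking water. GF control mice were germ-free without tylosin, and GF PAT mice were germ-free and had the same tylosin pulse. Germ-free mice were bred apart from the SPF mice, and the labels name no litter or assay run, so colonization and breeding colony cannot be told apart.

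Interferons are secreted cytokines that cells release on sensing foreign nucleic acids or, for type II interferon, that activated T cells and NK cells release. Interferon receptors signal through bound Janus kinases. Type I and III interferons act chiefly on genes with an interferon-stimulated response element, whereas type II interferon acts chiefly on genes with a gamma-activated sequence. Interferon-stimulated genes differ in which of these elements they carry. In the small intestine, both epithelial cells and lymphocytes express parts of this pathway, and commensal bacteria are known to influence its resting tone.

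The promoters of the 3 genes that differed between SPF control and GF control mice are shown first, because they let a reader see which interferon elements lie near each start. Windows of 300 bases, from 250 before to 50 after a start in RefSeq (GRCm38.p6), were held for 8 of the 10 genes and not for Mx1 and Ifi204. They were searched on both strands for the core of the interferon-stimulated response element, GAAANNGAAA, and for the core of the gamma-activated sequence, TTCNNNGAA, which reads the same on both strands. The first core occurred in 3 of the 8 genes (Ifih1, Ddx58 and Bst2) and in 3.44% of all 32851 windows. The second occurred in 5 of the 8 genes (Irf1, Bst2, Ifit2, Ifi35 and Ifng) and in 8.30% of all windows. A gene was counted if any of its windows matched, and Irf1 and Ifit2 had more than a single window. The shares of genes and of windows are therefore in unlike units. The Ifit2 match lay in a window that is not at the outermost start of the gene. The stretches from 150 bases before to 30 bases after the start are given 5′ to 3′ on the gene's strand, with matches in capitals.
Irf1 (chr11:53769864-53770043, plus strand): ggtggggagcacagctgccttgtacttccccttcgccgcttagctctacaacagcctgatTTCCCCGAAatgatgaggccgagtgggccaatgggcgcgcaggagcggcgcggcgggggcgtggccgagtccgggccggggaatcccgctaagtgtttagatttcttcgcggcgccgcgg
Bst2 (chr8:71537443-71537622, minus strand): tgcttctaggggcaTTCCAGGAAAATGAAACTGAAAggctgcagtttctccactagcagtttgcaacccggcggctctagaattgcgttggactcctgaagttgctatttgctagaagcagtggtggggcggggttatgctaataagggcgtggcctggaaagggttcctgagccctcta
Ddx58 (chr4:40239796-40239975, minus strand): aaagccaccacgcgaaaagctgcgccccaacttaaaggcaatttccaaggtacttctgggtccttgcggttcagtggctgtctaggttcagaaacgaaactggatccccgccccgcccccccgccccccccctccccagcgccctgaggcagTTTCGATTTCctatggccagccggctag
In Irf1 the capitals mark 1 gamma-activated core, from position -90 to -82 relative to the start. In Bst2 they mark 1 gamma-activated core from -136 to -128, which runs into 2 overlapping response element cores that together end at -115. In Ddx58 they mark 1 response element core on the opposite strand, from position 3 to 12. A match describes letters and not a site in use, and no binding was measured in these mice.

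Colonization was examined first, as SPF control against GF control mice. Of the 10 genes, Irf1 and Bst2 were higher in SPF control mice, Ddx58 was lower, and 7 did not pass the test (limma, adjusted p below 0.05 over 556 genes). The genes therefore did not shift in 1 direction. Of all 556 genes, 42.1% passed, 19.4% higher and 22.7% lower, so the share of interferon-stimulated genes that passed was not above that of the panel. Their median log2 difference was -0.29, against 0.08 over all genes. Groups did not overlap for 5 of the 10 genes (Irf1, Irf7, Ddx58, Mx1 and Bst2), against 52.2% of the panel.

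Irf1 (chr11:53770014-53778374) encodes interferon regulatory factor 1, a transcription factor induced chiefly by type II interferon that drives antigen processing genes. Its log2 normalized counts were 12.51, 12.57 and 12.73 in SPF control mice 2, 7 and 8, and 11.96, 12.22 and 12.01 in GF control mice 37, 38 and 39. In SPF PAT mice 21, 26 and 27 the values were 11.68, 11.88 and 11.96, and in GF PAT mice 41, 42 and 43 they were 11.83, 11.59 and 11.87. Every SPF control mouse lay above all 9 other mice. The mean was 12.60 ± 0.112 (SD, n = 3) in SPF control and 12.06 in GF control mice, a log2 difference of 0.54 (SE 0.13, 95% confidence interval 0.25 to 0.83, 1.45-fold, limma adjusted p = 0.00887). In normalized counts, which are scaled for depth, SPF control mice had 5830 to 6770 and GF control mice 3980 to 4760. Where each mouse was instead centred on the median of its log2 values, the difference was 0.10 and did not pass (adjusted p = 0.761), while the median of all genes moved from 0.08 to -0.36.

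**Figure D1:**
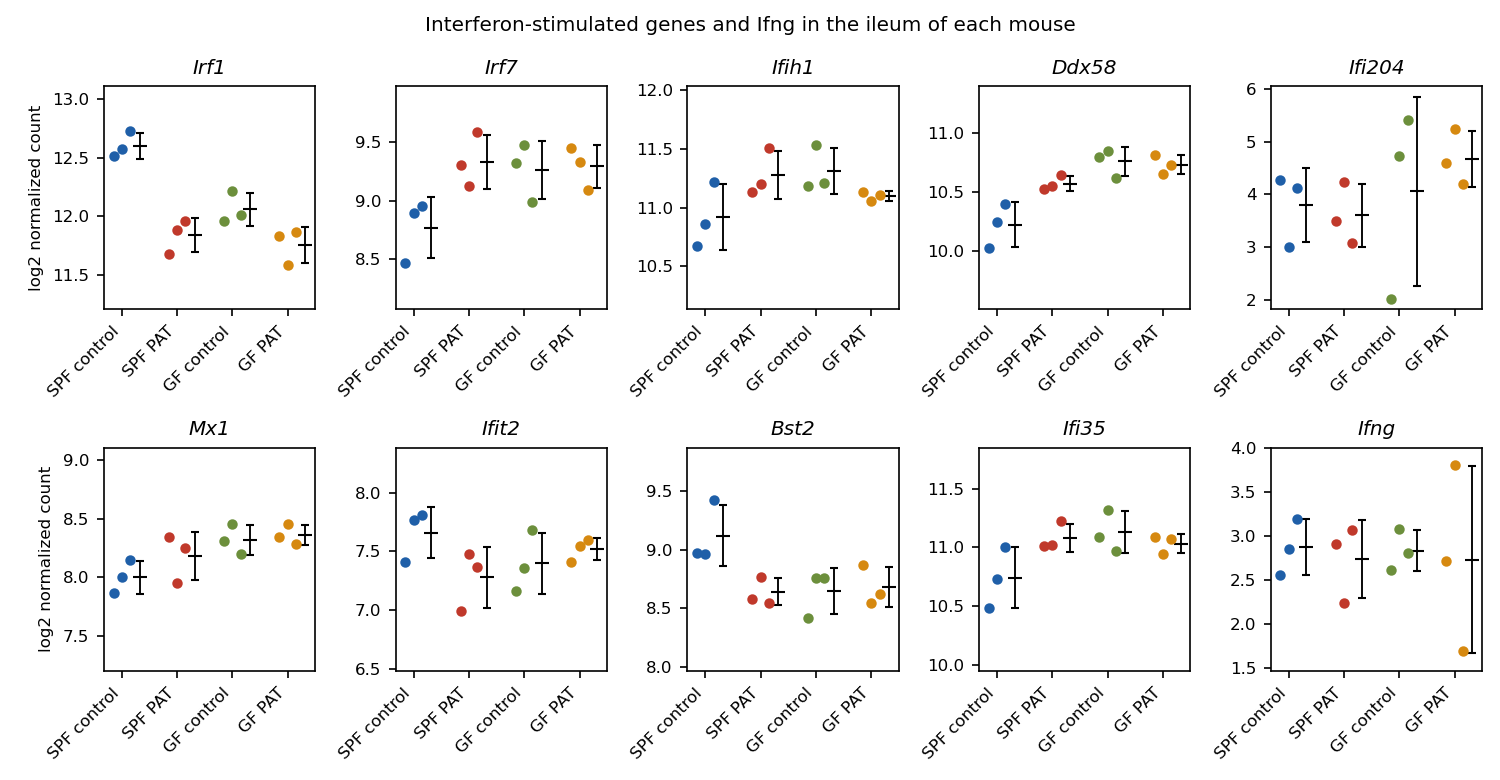
Log2 normalized count (y axis, a separate range per gene) of each of the 10 genes in each mouse, by group (x axis). Points are mice and the black mark beside them is the mean with SD (n = 3). Irf1 in SPF control mice (12.51 to 12.73) lies above every other mouse, while Ddx58 in SPF control mice (10.02 to 10.40) lies below every other mouse.

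Irf7 (chr7:141263183-141266499), the regulator that amplifies type I interferon production, gave the opposite order without passing the test. Its log2 values were 8.47, 8.89 and 8.95 in SPF control mice and 9.32, 9.47 and 8.99 in GF control mice 37, 38 and 39. The groups did not overlap, but the nearest mice were 8.95 and 8.99. The log2 difference was -0.49 (95% confidence interval -0.91 to -0.06, limma adjusted p = 0.0648).

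Among the sensors, Ddx58 (chr4:40203777-40239825) encodes RIG-I, which detects short double-stranded RNA with a 5′ triphosphate, and Ifih1 (chr2:62595618-62646255) encodes MDA5, which detects long double-stranded RNA. Ddx58 had log2 values of 10.02, 10.24 and 10.40 in SPF control mice 2, 7 and 8 and of 10.80, 10.85 and 10.62 in GF control mice 37, 38 and 39. The groups did not overlap, and the log2 difference was -0.54 (SE 0.12, 95% confidence interval -0.82 to -0.26, 1.45-fold lower, limma adjusted p = 0.00677). Ifih1 had log2 values of 10.67, 10.86 and 11.22 against 11.18, 11.53 and 11.21 in the same mice. Mouse 8 of the SPF control group reached the GF control range, and the log2 difference of -0.39 did not pass (limma adjusted p = 0.0883). Ifi204 (chr1:173747293-173767069), a DNA sensor of a family of similar genes, was near the bottom of the measurable range at 4 to 43 counts per mouse. Its log2 difference was -0.26 with an SE of 0.78, and even a 2.79-fold higher level in SPF control mice lay within its 95% confidence interval.

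Among the effectors, Bst2 (chr8:71534255-71537472) encodes tetherin, which holds enveloped virus particles at the cell surface. Its log2 values were 8.97, 8.96 and 9.42 in SPF control mice 2, 7 and 8 and 8.42, 8.76 and 8.76 in GF control mice 37, 38 and 39. The groups did not overlap, and the log2 difference was 0.47 (SE 0.17, 95% confidence interval 0.10 to 0.84, limma adjusted p = 0.0453). Mouse 8 stood above the other two of its group, and without it the difference was 0.32 (adjusted p = 0.121). The Bst2 call held in only 7 of 22 alternative analyses, whereas that of Irf1 held in 21 and that of Ddx58 in all 22.

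The other effectors did not pass. Mx1 (chr16:97447035-97462906), a GTPase that blocks viral replication and is defective in most inbred mouse strains, including C57BL/6, was 7.87 to 8.15 in SPF control and 8.20 to 8.45 in GF control mice, without overlap (log2 difference -0.31, limma adjusted p = 0.0877). Ifi35 (chr11:101448412-101458701), an interferon-induced leucine zipper protein, was 10.48 to 11.00 against 10.97 to 11.32 (log2 difference -0.39, limma adjusted p = 0.0652). Ifit2 (chr19:34550550-34576534), a protein of the family that restrains translation of viral RNA, was 7.41 to 7.81 against 7.16 to 7.68 (log2 difference 0.26, limma adjusted p = 0.255). With median centring the Ifit2 difference was -0.18 (adjusted p = 0.647).

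Ifng (chr10:118441046-118445894) was counted 3 to 14 times per mouse, where counting alone gives a coefficient of variation of 36.5%. It was counted 7, 9 and 11 times in SPF control mice 2, 7 and 8 and 6, 7 and 7 times in GF control mice 37, 38 and 39. The log2 difference was 0.04 with a 95% confidence interval of -0.99 to 1.06, so changes from 0.504 to 2.09 times the GF control level lay within the interval, given the spread among 3 mice per group. The type I and III ligands on the panel were similarly scarce. Counts per mouse were 3 to 47 for Ifna1, 2 to 10 for Ifna2, 0 to 13 for Ifnb1 and 1 to 12 for Il28a, and none of these 4 passed in any comparison. The negative control probes hold no value, so no background limit could be set for these genes.

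The tylosin pulse in colonized mice was examined next, as SPF PAT against SPF control mice. Irf1 fell, and the other 9 genes did not pass, against 26.3% of the panel that passed (14.0% higher and 12.2% lower). Irf1 decreased by 0.76 on the log2 scale (SE 0.13, 95% confidence interval -1.06 to -0.47, limma adjusted p = 0.00445), which is 1.70-fold, from normalized counts of 5830 to 6770 to 3280 to 3970. With median centring the difference was -0.41 and did not pass (adjusted p = 0.244), while the median of all genes moved from -0.02 to 0.34. The highest SPF PAT mouse, at 11.96, lay below the lowest SPF control mouse, at 12.51. The mean of SPF PAT mice, 11.84 ± 0.143 (SD, n = 3), was next to those of GF control mice (12.06) and GF PAT mice (11.76). From SPF PAT to GF control mice Irf1 differed by -0.22 (95% confidence interval -0.52 to 0.07, limma adjusted p = 0.584), and from SPF PAT to GF PAT mice by 0.07 (95% confidence interval -0.22 to 0.37, limma adjusted p = 0.920). In the order of levels, then, SPF control stood first, and the neighbouring groups below it, GF control, SPF PAT and GF PAT, were not separated by the test.

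Several genes lay close to the threshold in this comparison. Irf7 was 9.30, 9.12 and 9.58 in SPF PAT mice 21, 26 and 27, all above the SPF control mice (log2 difference 0.56, 95% confidence interval 0.13 to 0.99, limma adjusted p = 0.0543). Bst2 was 8.58, 8.77 and 8.55, all below the SPF control mice (log2 difference -0.48, limma adjusted p = 0.0565). Ddx58 was 10.52, 10.55 and 10.64, all above them (log2 difference 0.35, limma adjusted p = 0.0585). Ifi35 was 11.01, 11.02 and 11.22, with the highest SPF control mouse at 11.00 (log2 difference 0.34, limma adjusted p = 0.119). With Irf1 these made 5 genes without overlap between groups, against 228 of all 556 genes. Ifih1 (0.36, adjusted p = 0.134), Ifit2 (-0.38, adjusted p = 0.137) and Mx1 (0.18, adjusted p = 0.331) overlapped between groups. Ifi204 was counted 7 to 16 times and Ifng 4 to 8 times in SPF PAT mice, and their intervals (-1.94 to 1.54 and -1.15 to 0.90) left changes in either direction undetermined. The number of genes called depended on the variance model, the filter on low counts and the scaling: 4 passed where the variance followed the intensity, 4 where genes with a mean normalized count under 20 were left out, 4 with limma voom on recovered counts and 6 when scaled to the total count. Without SPF control mouse 8, 5 genes passed. The share of the panel that passed in each of these alternatives is not given here, so these counts are not set against it.

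**Figure D2:**
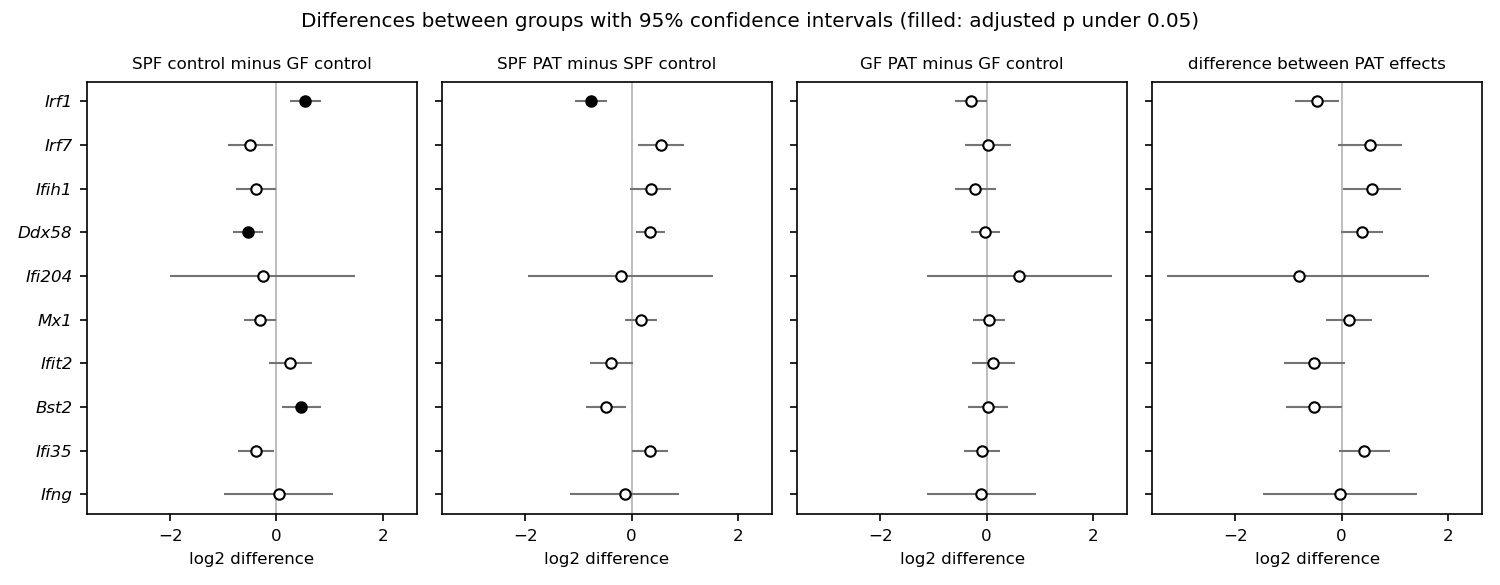
Log2 difference of each gene (x axis) in 4 comparisons (panels), with its 95% confidence interval from limma. Filled points passed at an adjusted p below 0.05 over 556 genes: Irf1 (0.54), Bst2 (0.47) and Ddx58 (-0.54) with colonization, and Irf1 (-0.76) with PAT in SPF mice. Ifi204 and Ifng have the widest intervals.

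The tylosin pulse without a microbiota was examined as GF PAT against GF control. None of the 10 genes passed, and neither did any of the 556 (0%; 28 genes had an unadjusted p below 0.05, and limma voom on recovered counts called 1 gene). Leaving aside the scarce Ifi204, the largest shift was that of Irf1, at -0.30 on the log2 scale (0.814-fold, 95% confidence interval 0.664 to 0.998, limma unadjusted p = 0.0480 and adjusted p = 0.693). All 3 GF PAT mice, at 11.59 to 11.87, were below all 3 GF control mice, at 11.96 to 12.22, so Irf1 pointed the same way with PAT in both backgrounds. Ifih1 also did not overlap, with 11.06 to 11.13 against 11.18 to 11.53 (log2 difference -0.21, adjusted p = 0.693), while 12.1% of the panel had groups without overlap. Ddx58 (-0.03), Bst2 (0.03), Irf7 (0.03) and Mx1 (0.04) had means within 0.04 of GF control mice.

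The interaction of PAT with colonization was tested as the PAT difference in SPF mice minus that in GF mice. None of the 10 genes passed, against 17.1% of the panel. A limma unadjusted p below 0.05 was found for 2 (Irf1 and Ifih1), against 211 of all 556 genes. The interaction was -0.47 for Irf1 (95% confidence interval -0.88 to -0.05, limma adjusted p = 0.0989). It was 0.57 for Ifih1 (0.03 to 1.11, adjusted p = 0.114) and -0.51 for Bst2 (-1.04 to 0.01, adjusted p = 0.135). A larger effect in SPF than in GF mice was therefore not shown for these genes. The Irf1 value depended on the scaling: it passed at -0.97 with quantile normalization and at -0.55 with scaling to the total count, and it turned to 0.08 (adjusted p = 0.874) with median centring, which moved the median of all genes from 0.01 to 0.55. Between SPF PAT and GF control mice no gene of the 10 passed, against 2.16% of the panel, and Irf1 alone did not overlap (13.8% of the panel). Between SPF PAT and GF PAT mice none passed, against 1.44%, and Ddx58 alone did not overlap (13.7%).

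Within single mice, Irf1 and Ddx58 gave a ratio from which any scaling by a single factor per mouse cancels, though not quantile normalization. This pair was chosen after the values were seen, and the ratio is given without a test. The log2 ratio of Irf1 to Ddx58 counts was 2.49, 2.33 and 2.33 in SPF control mice 2, 7 and 8. It was 1.16, 1.32 and 1.31 in SPF PAT mice 21, 26 and 27. In GF control mice 37, 38 and 39 it was 1.15, 1.37 and 1.39, and in GF PAT mice 41, 42 and 43 it was 1.02, 0.94 and 1.14. The ratio in every SPF control mouse thus exceeded that in all 9 other mice, whose values spanned 0.94 to 1.39. It shows unequal change of the pair and not which of them moved.

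**Figure D3:**
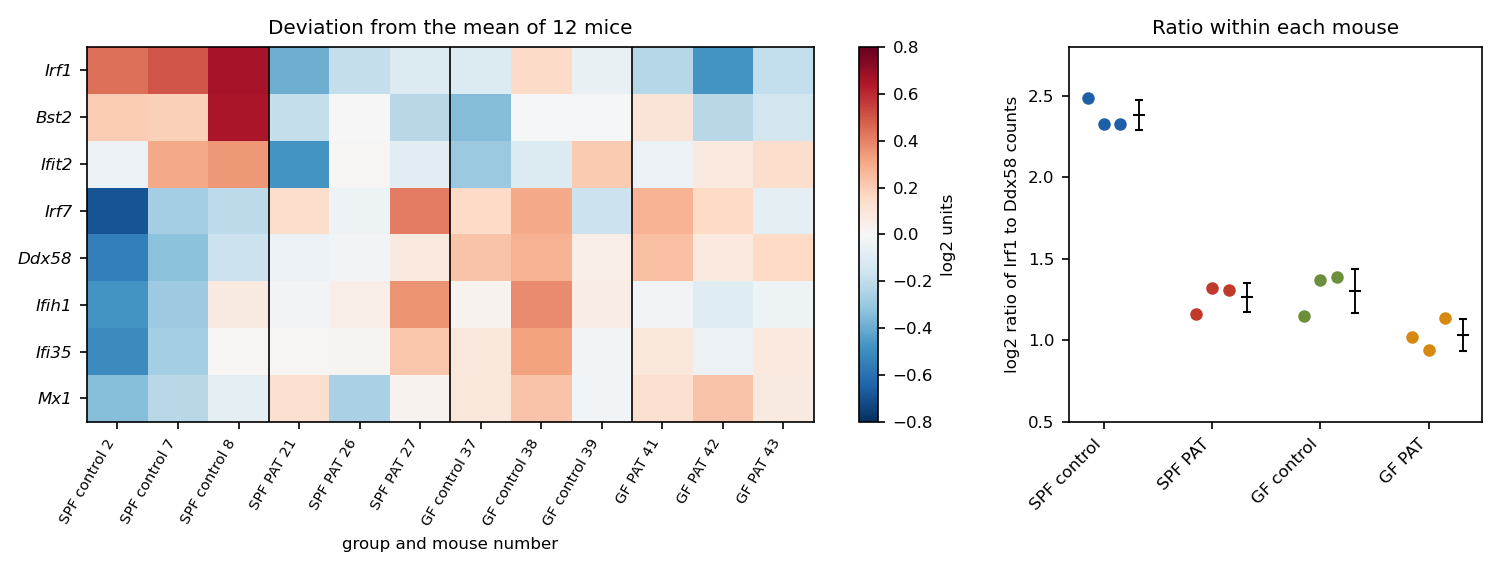
Left, deviation of each gene (rows, Ifi204 and Ifng left out for their low counts) from its mean over 12 mice, in log2 units (colour), for each mouse (columns, by group and mouse number). Right, log2 ratio of Irf1 to Ddx58 counts in each mouse with the group mean and SD (n = 3). SPF control mice are high in Irf1 and Bst2 and low in Irf7 and Ddx58, and their ratios (2.33 to 2.49) lie above those of the other mice (0.94 to 1.39).

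Across the 12 mice the genes fell into patterns that the group means already show. Irf1 and Bst2 had a Pearson correlation of 0.81, and Irf1 and Ddx58 one of -0.63. These correlations are descriptions over 12 mice in 4 groups that share a panel and 1 size factor per mouse. After each group's mean was subtracted, Irf1 and Ddx58 correlated at 0.68 instead, so mice high in one within their group tended to be high in the other while the groups moved apart. The same deviations of Irf1 correlated at 0.80 with those of Ifih1 and at 0.78 with those of Ifi35, and Ifih1 and Ifi35 correlated at 0.95. SPF control mouse 2 was the lowest of all 12 mice in Irf7, Ifih1, Ddx58, Mx1 and Ifi35.

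Among the other panel genes, those most like Irf1 over the 12 mice were Tbx21 (0.96), the transcription factor of type 1 lymphocytes, Nox1 (0.95), an epithelial NADPH oxidase, and Irf8 (0.90), a further interferon regulatory factor. Those most like Ddx58 were Dpp4 (0.96), Btnl1 (0.95) and Mme (0.95), the first and last of them brush-border peptidases and the middle one a butyrophilin-like protein of the intestinal epithelium. Those most like Bst2 included Tlr2 (0.92) and Irgm1 (0.89), of which Irgm1 is itself interferon-induced. Irf7 was most like Btnl2 and Ifi35 (both 0.88), and Ifih1 most like Ifi35 and Casp8 (both 0.94).

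The wider pathway gave the setting of these values. Of the 85 further genes on the pathway lists, 54 had values. Between SPF control and GF control mice 17 of the 54 were higher and 16 lower, against 19.4% and 22.7% of the panel. Between SPF PAT and SPF control mice 9 were higher and 13 lower, against 14.0% and 12.2% of the panel. None of the 54 passed with PAT in germ-free mice. The first 2 comparisons share the SPF control mice, so the values are given side by side and their opposite signs are not separate evidence.

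Of 5 receptor genes, 4 were lower in SPF control than in GF control mice, against 22.7% of the panel, and none was higher. The interferon-gamma receptor chains Ifngr1 and Ifngr2 differed by -1.01 and -0.85 on the log2 scale, and Il10rb, the chain shared by type III interferon and interleukin-10 receptors, by -0.72. With PAT in SPF mice, 3 of the 5 rose, against 14.0% of the panel, namely Ifngr1 by 0.75, Ifngr2 by 0.69 and Il10rb by 0.62.

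Among the transducers, the kinases Jak2 (-0.90) and Tyk2 (-0.60) were lower in SPF control than in GF control mice. With PAT in SPF mice Jak2 (0.59) and Tyk2 (0.47) rose. Of the 4 inhibitors, Socs1, which blocks Janus kinases, was higher in SPF control mice (1.03) and fell with PAT (-1.08), and the phosphatase gene Ptpn2 was lower in SPF control mice (-0.58). Thus 2 of the 4 passed with colonization and 1 with PAT, near the panel's 42.1% and 26.3%.

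Of 10 further sensing genes, 1 was higher and 5 were lower in SPF control than in GF control mice, against 19.4% and 22.7% of the panel. Tmem173, which encodes the DNA sensing adaptor STING, was the higher one (0.83), and the lower ones included the kinase Tbk1 (-0.60) and the adaptor Traf3 (-0.44) that act below RIG-I and MDA5. With PAT in SPF mice Tmem173 fell by 0.75 and Traf3 rose by 0.41, and the other 8 did not pass, a share near the 26.3% of the panel that passed.

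Of 15 further interferon-induced genes, 10 were higher and 2 lower in SPF control than in GF control mice, against 19.4% and 22.7% of the panel, with a median log2 difference of 0.97 against 0.08 over all genes. Tap1 and Psmb9, which process peptides for MHC class I, differed by 1.87 and 1.51, and Nos2, inducible nitric oxide synthase, by 2.85. The 2 lower genes, named after their values were seen, were the chemokine gene Cxcl11 (-2.03) and Pml (-0.53). With PAT in SPF mice 9 of the 15 fell and 2 rose, against 12.2% and 14.0% of the panel, with a median of -1.04 against -0.02 over all genes. Cd274, the gene of PD-L1, fell by 1.52, Tap1 by 1.47 and Psmb9 by 1.27, and Cxcl11 (1.66) and Pml (0.39) rose. Irf1, at 0.54 and -0.76, had the signs of the larger group and Ddx58, at -0.54 and 0.35, those of the smaller one, with the PAT value of Ddx58 not past the threshold.

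Of the 12 genes that induce Ifng or respond to its inducers, 5 were higher and 1 was lower in SPF control than in GF control mice. The panel's shares were 19.4% higher and 22.7% lower. In either direction together, the share that passed was near the panel's 42.1%. Il18 (1.30) and the interleukin-12 receptor gene Il12rb1 (0.96) were among the higher ones, and Il15, a survival factor for intraepithelial lymphocytes, was the lower one (-1.47). With PAT in SPF mice Il15 rose by 1.11, while Tbx21 fell by 0.68 and the interleukin-18 receptor gene Il18rap by 1.20, and the other 9 did not pass, again near the panel's 26.3%.

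**Figure D4:**
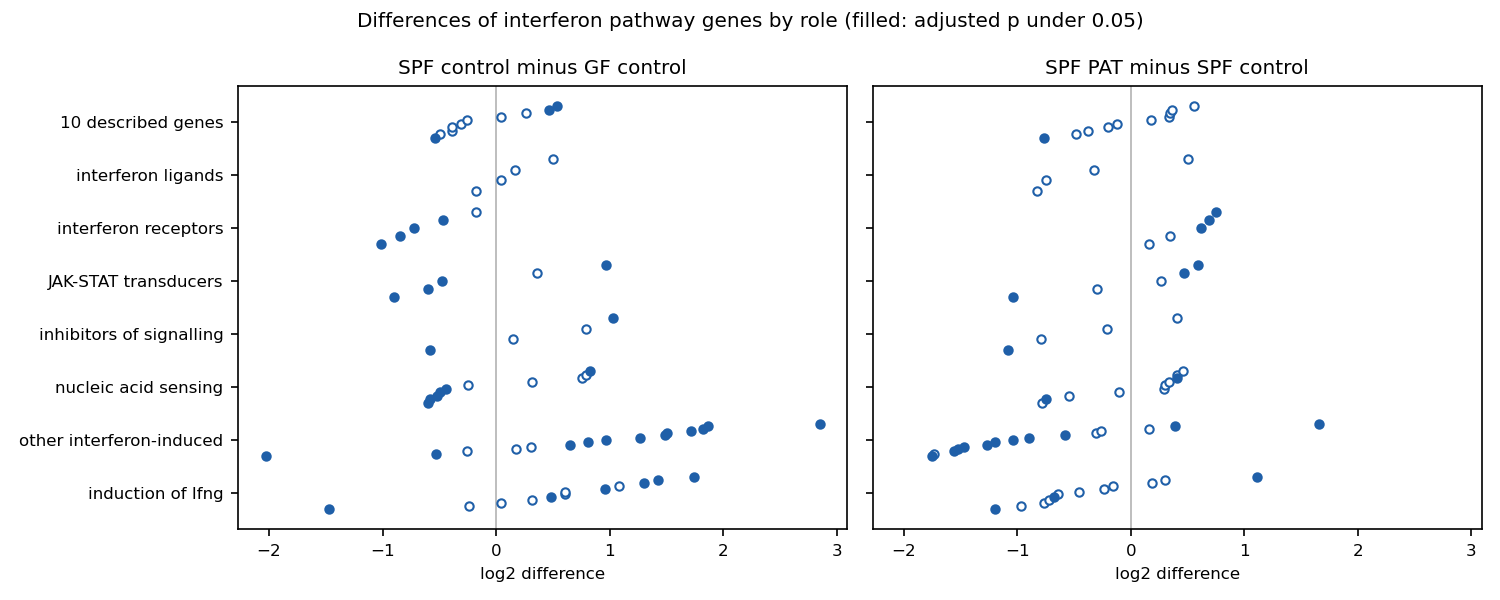
Log2 differences (x axis) of the 10 genes and of 54 other pathway genes by role (rows), for SPF control minus GF control (left) and SPF PAT minus SPF control (right). Each point is a gene, filled where limma's adjusted p was below 0.05, and 1 gene appears in 2 rows. Receptors lie left of 0 on the left side (4 of 5 passed), and further interferon-induced genes lie mostly right of 0 (of 15, 10 passed as higher and 2 as lower).

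Cell composition and depth moved with the same groups. The tissue gave high counts of Pigr and Itln1, genes of intestinal epithelium and its goblet and Paneth cells, at 25041 to 96536 per mouse. Of 8 epithelial markers, 6 were lower and 1 was higher in SPF control than in GF control mice (panel 22.7% and 19.4%), and 6 rose with PAT in SPF mice (panel 14.0%). Pigr was the higher one (0.77) and Itln1 did not pass (0.05), and neither passed with PAT in SPF mice (-0.59 and 0.54). The summed normalized counts of all 8 markers include these 2 abundant genes. The sums were 138000 to 160000 in SPF control, 146000 to 224000 in SPF PAT, 174000 to 202000 in GF control and 153000 to 179000 in GF PAT mice. Of 7 T cell markers, 6 were higher in SPF control than in GF control mice and 5 fell with PAT in SPF mice (panel 19.4% and 12.2%). Their sums were 1230 to 1780 in SPF control and 383 to 1090 in the other mice. Of 5 NK and cytotoxic markers, 4 were higher and 4 fell in the same comparisons, with sums of 857 to 998 in SPF control and 269 to 564 in the other mice. Of 4 endothelial and stromal markers, 2 were lower in SPF control than in GF control mice and 1 (Pdgfrb, 0.76) rose with PAT, with sums of 1500 to 1700 in SPF control, 1670 to 2140 in SPF PAT, 1850 to 2290 in GF control and 1810 to 1990 in GF PAT mice. Of 5 myeloid markers, Itgam alone passed, higher in SPF control mice (1.26) and lower with PAT (-0.90), with sums of 1670 to 2390 in SPF control, 1360 to 1910 in SPF PAT, 1300 to 1680 in GF control and 1290 to 1460 in GF PAT mice. None of 6 B cell markers passed, at median log2 differences of 1.98 with colonization and -2.24 with PAT in SPF mice, and their sums spread widely within groups, from 376 to 5460 in SPF control, 132 to 4730 in SPF PAT, 111 to 2740 in GF control and 1180 to 4620 in GF PAT mice. In SPF control mice, total counts were 806043 to 923395 against 600308 to 681370 in all others. No marker was at 0 in all mice. In bulk tissue, fewer cells of a type and less RNA per cell cannot be told apart, and the part of cell composition and of depth in the interferon-stimulated gene differences was not tested.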

How the data were processed

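RNA of the terminal ileum of 12 mice, 3 per group, was measured by NanoString nCounter. Per the labels RNA was extracted with TRIzol and column cleanup, and the study's methods name a miRNA extraction kit. Counts were divided by DESeq2 size factors and put on a log2 scale by the authors before they deposited them, for 556 genes. Values were absent for 28 entries (14 reference genes, 8 negative and 6 positive control probes), so no background limit or reference gene scaling was computed. With 1 size factor per mouse, values gave whole counts within 0.01, and the size factors (0.83 to 1.25) matched median-of-ratios factors computed from the same counts. A count of 0 is written as 0. Total counts were 600308 to 923395 per mouse. The number of mice and, for low genes, the counts limit the precision.

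The log2 values were fitted in limma 3.58.1 (lmFit, then eBayes, under R 4.3.3), with 1 mean per group, 12 mice in 1 model and no covariate or filter, in place of the methods' analysis of variance, and two-sided p-values received Benjamini-Hochberg adjustment across all 556 genes (threshold 0.05). The script was tested on simulated data. Mice of a group are separate animals, and litters are not given. All 10 genes are named, and of each pathway list up to 3 genes with the smallest p in either of the first 2 comparisons. For each gene the 3 panel genes with the highest correlation were listed, of which some are given. The genes and lists were chosen with earlier results of these data known. Alternatives were the methods' test, other variance models, 2 groups only, a low-count filter, 3 other scalings, log2 of the normalized count plus 1, voom on recovered counts, and each mouse left out. Gene positions and promoters are from RefSeq (GRCm38.p6), with all 10 symbols matched. Probe sequences were not used here. Some results are not reported here.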

Additional observations from a re-analysis of the deposited data

How the results depend on the processing

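No difference that had passed in the main fit changed sign in any alternative. Irf1 passed in 21 of 22 alternatives in both SPF comparisons and lost its call where each mouse was centred on its median, at 0.10 (adjusted p = 0.761) for SPF control minus GF control and -0.41 (adjusted p = 0.244) for SPF PAT minus SPF control. That centring moved the median of all genes from 0.08 to -0.36 and from -0.02 to 0.34, and quantile normalization moved it to -0.14 and 0.14. For SPF control minus GF control, the number of the 10 genes past the threshold was 3, and it was 5 with an intensity trend, 5 with median centring (all 5 lower, with Irf1 and Bst2 not among them) and 6 with scaling to the total count. For SPF PAT minus SPF control it was 1, and it was 4 with an intensity trend, 4 with a mean normalized count of at least 20, 4 with voom and 6 with scaling to the total count. Leaving out 1 mouse gave 2 to 4 genes in the first comparison and 1 to 5 in the second, the 5 without SPF control mouse 8. The panel's share in each alternative is not given beside these counts, so they do not show a change particular to these genes. For the interaction it was 0, with 1 (Irf1) under quantile normalization and under scaling to the total count, while median centring turned Irf1 from -0.47 to 0.08, Bst2 from -0.51 to 0.03 and Ifit2 from -0.51 to 0.04, none of which passed; it was 0 to 1 with 1 mouse left out (Ifih1, without SPF control mouse 8). The other 3 comparisons stayed at 0 throughout. Bst2 lost its call under Tukey's test (adjusted p = 0.178), with 2 groups only (0.107), under quantile normalization (0.162) and under median centring (0.942), and without each of 11 of the 12 mice. The cause of these changes was not tested. The fit on the 2 groups compared does not apply to the interaction and was not run there. No paired analysis was possible because each mouse belongs to a single group and the labels name no litter that would pair mice across groups. Counts of 3 to 14 for Ifng and 4 to 43 for Ifi204 limit both genes in all comparisons.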
